A study of Mus musculus with 6 samples.

Results

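Endothelial and angiogenic genes were followed in fat of leptin-deficient ob/ob mice and of ob/+ controls. The list held 34 genes, all of which were found by symbol in the deposited array table, on 38 of its 39507 reporters. They comprised 23 identity markers of endothelium, 5 adhesion molecules and 6 angiogenic ligands, out of 25739 genes tested. Epididymal white adipose tissue (labelled eWAT) had been taken at 9 weeks of age from 3 ob/ob and 3 ob/+ samples, and each sample was hybridised on 1 two-colour Agilent array. Every array carried the sample in Cy5 and 1 common pool of ob/+ RNA in Cy3, with no dye swap. The labels give C57BLKS/J as the genetic background, in the field of the pool channel. The ob allele disrupts leptin in the whole animal, and ob/+ controls keep a working copy. The labels give neither the sex nor whether the replicates came from separate animals, so p-values measure only the spread between these samples, which may be technical. RNA was extracted from whole tissue and amplified over several rounds before labelling.

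Endothelial cells line blood and lymph vessels, and in fat their capillaries grow and regress with the tissue. Vegfa, signalling through the receptors Kdr and Flt1, drives sprouting of blood vessels, Vegfc acts mainly through Flt4 on lymphatic vessels, and Vegfb binds Flt1. Angpt1 activates the receptor Tek and stabilises vessels, and Angpt2 can oppose it at the same receptor. Adhesion molecules such as Selp, Sele, Vcam1 and Icam1 capture leukocytes at the vessel wall.

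A value below is the log2 ratio of sample over pool on 1 array, and a difference is the mean of the ob/ob ratios minus the mean of the ob/+ ratios, with its standard error (SE). A gene is called when limma's moderated test, adjusted over all reporters by the Benjamini-Hochberg method, gave a p under 0.05. Intensities are the deposited linear values of the sample channel, which were stored in steps of 0.01. The median intensity of an array lay between 0.11 and 0.15. Where a gene lay near or below this level in 1 group, its difference gives a direction and no exact size. Median log2 ratios were 0 on every array, and the standard deviation of the ratios over reporters was 0.210 to 0.234 on the ob/+ arrays and 0.574 to 0.630 on the ob/ob arrays. Lep, the gene that the ob allele disrupts, had ratios of 0.00, 0.14 and -0.14 in ob/+ and of 2.13, 2.12 and 2.10 in ob/ob, at a mean intensity of 0.107 and 0.433. Of the 25739 genes, 24.6% were called, 12.4% as higher and 12.1% as lower in ob/ob.

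The angiogenic ligands moved, in opposite directions, while most identity markers and adhesion molecules were not called. In limma's test, 5 of the 6 ligands were called, Vegfc and Angpt2 as higher and Vegfa, Vegfb and Angpt1 as lower in ob/ob. Of the 23 identity markers 2 were called, Eng and Ramp2, both lower, and of the 5 adhesion molecules only Selp was called, as higher, while a dimmer second reporter of Vcam1 was also higher. In all, 8 of the 34 genes were called, 3 higher and 5 lower, a share close to the 24.6% of all genes. The arrays of the groups did not overlap for 9 of the 34 genes, against 40.1% of all genes, with ob/ob above for 3 genes (20.2% of all genes) and below for 6 (19.9% of all genes). The median difference was -0.04 over the 34 genes and 0.00 over all genes, and the median size of a difference was 0.23 and 0.21. By class, the median size was 0.92 for the ligands, 0.18 for the identity markers and 0.15 for the adhesion molecules. In this bulk tissue, fewer endothelial cells and less RNA per cell cannot be told apart.

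**Figure D1:**
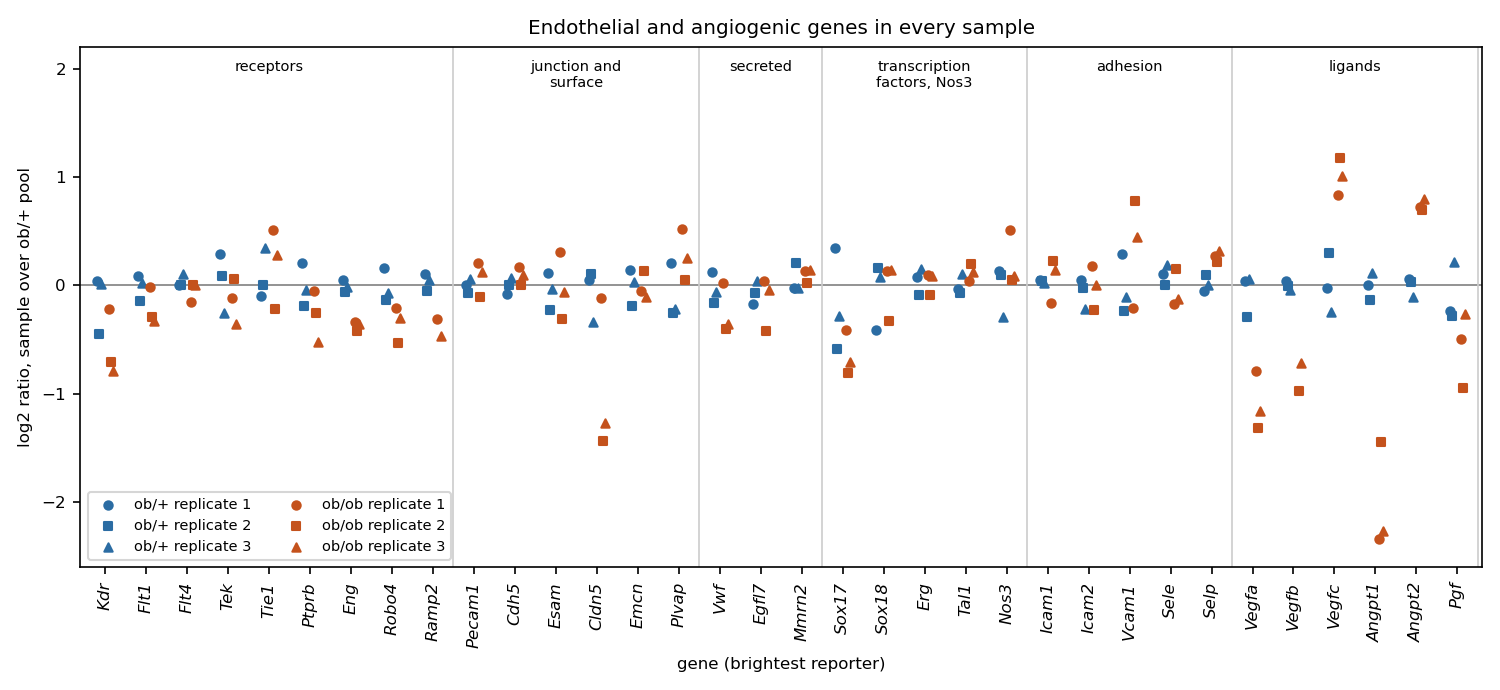
Log2 ratio of sample over pool for each of the 34 genes (brightest reporter) on the 3 ob/+ and 3 ob/ob arrays; each point is 1 array. The ob/ob points of Angpt1, Vegfa and Vegfb lie below and those of Vegfc and Angpt2 above all ob/+ points, whereas for most identity markers the groups overlap.

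Among the vascular endothelial growth factors, Vegfa and Vegfb were lower and Vegfc was higher in ob/ob fat. The sequences upstream of these 3 genes are shown because the genes moved in different directions. Each is the 250 bases before the gene's start, 5′ to 3′ on the strand of the gene, from RefSeq on mouse build GRCm38.p6. Capitals mark GGGCGG, the box bound by Sp1, and ACGTG or GCGTG, the core of the hypoxia response element, on either strand.
Vegfa (chr17:46032378-46032627, minus strand): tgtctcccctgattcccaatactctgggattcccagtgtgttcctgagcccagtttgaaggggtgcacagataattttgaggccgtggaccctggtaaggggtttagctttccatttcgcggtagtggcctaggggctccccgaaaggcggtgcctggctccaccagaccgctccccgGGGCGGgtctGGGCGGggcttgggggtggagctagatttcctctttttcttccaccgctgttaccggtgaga
Vegfb (chr19:6987652-6987901, minus strand): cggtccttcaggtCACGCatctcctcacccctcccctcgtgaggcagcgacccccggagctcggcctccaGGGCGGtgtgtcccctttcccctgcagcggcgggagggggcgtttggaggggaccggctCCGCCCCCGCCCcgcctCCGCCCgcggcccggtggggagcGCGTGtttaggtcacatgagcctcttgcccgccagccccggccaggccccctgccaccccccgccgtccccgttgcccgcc
Vegfc (chr8:54077282-54077531, plus strand): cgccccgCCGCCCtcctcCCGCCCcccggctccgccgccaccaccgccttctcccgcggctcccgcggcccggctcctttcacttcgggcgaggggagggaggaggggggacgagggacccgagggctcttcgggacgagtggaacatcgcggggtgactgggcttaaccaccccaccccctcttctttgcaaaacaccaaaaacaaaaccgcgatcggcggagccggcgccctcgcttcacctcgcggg
The Vegfa window held 2 GGGCGG boxes, the Vegfb window 4 and the Vegfc window 2. The hypoxia core occurred at 2 places in the Vegfb window and at 0 places in the Vegfa and Vegfc windows. GGGCGG was present in 32.7% and the hypoxia core in 38.6% of all 32851 windows of this length. Of the 34 genes, 19 had a window, of which 10 held GGGCGG and 6 the hypoxia core. These are matches of letters and not binding sites.

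Vegfa, the main ligand of blood vessel sprouting, had ratios of 0.04, -0.29 and 0.06 in ob/+ replicates 1 to 3 and of -0.79, -1.32 and -1.16 in ob/ob replicates 1 to 3. All ob/ob arrays lay below all ob/+ arrays, a 2.03-fold lower level (log2 difference -1.02 ± 0.18 SE, n = 3 and 3, limma adjusted p = 0.0204). Mean intensity was 0.973 ± 0.167 (SD) in ob/+ and 0.477 ± 0.105 in ob/ob. Omission of any 1 array other than ob/+ replicate 2 and ob/ob replicate 1 ended the call, with the difference between -1.17 and -0.91 over the 6 omissions of 1 array and limma adjusted p up to 0.0816.

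Vegfb, a ligand of Flt1 linked to fatty acid uptake by endothelium, was the brightest of the 6 ligands' reporters, at 12.5 ± 0.761 in ob/+. Its ratios were 0.05, 0.00 and -0.04 in ob/+, and -0.98 and -0.72 in ob/ob replicates 2 and 3, with no value for ob/ob replicate 1. Both ob/ob arrays lay below the ob/+ arrays, and the level was 1.80-fold lower (log2 difference -0.85 ± 0.09 SE, n = 3 and 2, limma adjusted p = 0.0122). Of the 4 omissions that left enough arrays, those of ob/+ replicate 1 and ob/+ replicate 3 ended the call, at limma adjusted p = 0.0579 and 0.0541. Omission of ob/ob replicate 1 removed no value of Vegfb, and omission of ob/ob replicate 2 or 3 left too few arrays.

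Vegfc, the main ligand of lymphatic vessel growth, had ratios of -0.03, 0.30 and -0.25 in ob/+ and of 0.83, 1.18 and 1.01 in ob/ob replicates 1 to 3. The ob/ob arrays were all above the ob/+ arrays and the level was 2.00-fold higher (log2 difference 1.00 ± 0.17 SE, limma adjusted p = 0.0194). The same omissions as for Vegfa ended the call, with limma adjusted p up to 0.077.

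Of the angiopoietins, Angpt1 fell and Angpt2 rose in ob/ob. Angpt1, the agonist of Tek, showed the largest change of the 34 genes, with ratios of 0.00, -0.13 and 0.12 in ob/+ and of -2.34, -1.45 and -2.27 in ob/ob. That is a 4.04-fold lower level (log2 difference -2.01 ± 0.27 SE, limma adjusted p = 0.0107), from a mean intensity of 0.82 ± 0.08 (SD) to 0.20 ± 0.0794. Its ob/ob intensities reached down to 0.14, near the array median, so the size is inexact. Angpt2, the context-dependent antagonist, had ratios of 0.06, 0.03 and -0.11 in ob/+ and of 0.72, 0.70 and 0.79 in ob/ob. It was 1.67-fold higher (log2 difference 0.74 ± 0.06 SE, limma adjusted p = 0.00379), and its ob/ob arrays lay closer together than those of any other called ligand. Both calls held whichever 1 of the 6 arrays was left out.

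Pgf, the placental growth factor that binds Flt1, had ratios of -0.23, -0.28 and 0.22 in ob/+ and of -0.49, -0.95 and -0.26 in ob/ob. The groups overlapped narrowly, and the difference of -0.47 ± 0.23 SE was not called (limma adjusted p = 0.239). Its 95% interval, -1.07 to 0.14, extends past a 2-fold decrease.

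**Figure D2:**
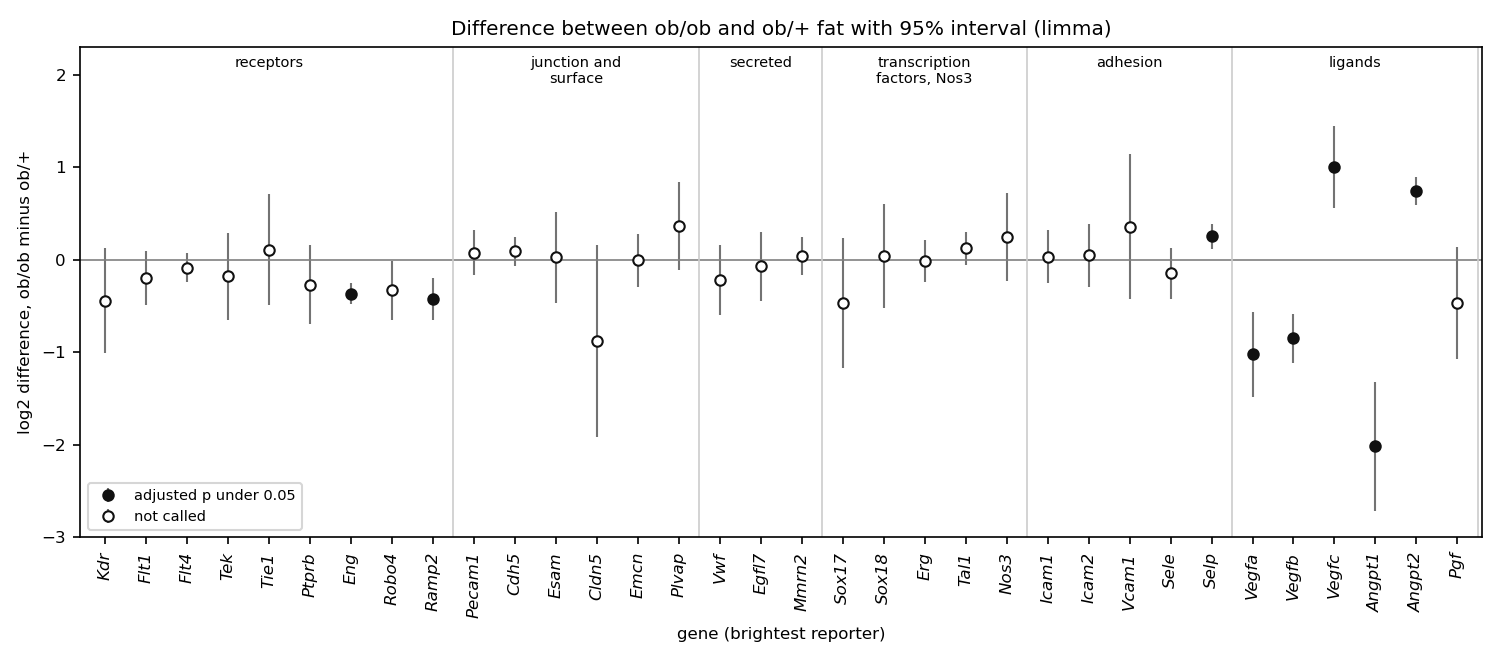
Log2 difference, ob/ob minus ob/+, of each of the 34 genes with its 95% confidence interval from limma, grouped by class and marked by whether the gene was called. The ligands reach from -2.01 for Angpt1 to 1.00 for Vegfc, and the identity markers from -0.88 to 0.36.

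The receptors and surface signalling proteins of endothelium were mostly at or slightly below the ob/+ level. Of the 9 genes, 2 were called as lower and 0 as higher by limma (at an unadjusted p under 0.05, 3 and 0), and the median difference was -0.27. The mean ratio over the 8 of these genes with a value on every array, which leaves out Ramp2, was -0.11 to 0.09 on the ob/+ arrays and -0.30 to -0.07 on the ob/ob arrays, so that the ranges overlapped.

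Eng (endoglin), a co-receptor for BMP9 and TGF-beta on endothelium, was the brightest of the 34 genes' reporters and the most precisely measured decrease. Its ratios were 0.05, -0.06 and -0.01 in ob/+ and -0.34, -0.42 and -0.35 in ob/ob. The ob/ob arrays lay below the ob/+ arrays, a 1.29-fold lower level (log2 difference -0.37 ± 0.04 SE, limma adjusted p = 0.00788), and the call held in each omission of 1 array. Log2 sample intensity without the pool, centred on the median of each array, gave a difference of -0.03 for Eng (limma adjusted p = 0.897). Before centring, the sample intensity of Eng was 20.7 ± 1.28 (SD) in ob/+ and 16.8 ± 0.747 in ob/ob. The medians used for centring lay between 0.11 and 0.15 and were stored in steps of 0.01. On the centred scale the median difference of all genes moved to 0.13, and 67.0% of the called genes were higher, against 50.6% with the pool ratio. The window before the start of Eng is shown because Eng is a called identity marker. Capitals mark GGAA on either strand, the core bound by ETS factors such as Erg.
Eng (chr2:32646345-32646594, plus strand): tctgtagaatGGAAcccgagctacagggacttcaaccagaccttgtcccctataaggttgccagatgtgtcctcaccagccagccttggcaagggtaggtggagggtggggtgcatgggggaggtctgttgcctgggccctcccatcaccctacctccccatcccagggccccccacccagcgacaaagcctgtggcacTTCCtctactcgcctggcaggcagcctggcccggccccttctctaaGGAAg
The window held 3 GGAA cores, which was also the median over all windows, and 93.4% of all windows and 16 of the 19 windows of the listed genes held GGAA at least once.

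Ramp2, which forms the adrenomedullin receptor with Calcrl, had 2 reporters that differed. The brighter one gave ratios of 0.11, -0.05 and 0.05 in ob/+ and of -0.31 and -0.47 in ob/ob replicates 1 and 3, with no value for ob/ob replicate 2. It was 1.34-fold lower (log2 difference -0.42 ± 0.08 SE, n = 3 and 2, limma adjusted p = 0.0371). The call was lost in each of the 4 omissions that left enough arrays, with limma adjusted p between 0.0505 and 0.127. Of these, the omission of ob/ob replicate 2 (limma adjusted p = 0.0505) removed no value of this reporter and left its difference at -0.42. Only the ob/+ omissions removed a value, and omission of ob/ob replicate 1 or 3 left too few arrays. The dimmer reporter, at a mean intensity of 0.27 in ob/+, gave -0.02 ± 0.05 SE.

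The other receptors were not called. Robo4, a vessel guidance receptor, had ratios of 0.16, -0.14 and -0.07 in ob/+ and of -0.21, -0.53 and -0.30 in ob/ob, which did not overlap. Its difference of -0.33 ± 0.12 SE missed the threshold (limma adjusted p = 0.141). Kdr, the main signalling receptor of Vegfa, gave 0.04, -0.45 and 0.02 in ob/+ against -0.22, -0.70 and -0.79 in ob/ob. These overlapped, and the interval of its difference, -1.01 to 0.12, reaches just past a 2-fold decrease (limma adjusted p = 0.233). Flt1, which binds Vegfa, Vegfb and Pgf, differed by -0.20 ± 0.11 SE (limma adjusted p = 0.296). Tek and Tie1, the angiopoietin receptor and its partner, differed by -0.18 ± 0.18 and 0.11 ± 0.23 SE. Ptprb, a phosphatase that restrains Tek, differed by -0.27 ± 0.17 SE. Flt4, the receptor of Vegfc, lay at or below the median intensity of the arrays (mean 0.103 in ob/+ and 0.0667 in ob/ob), where rounding alone can move its difference by up to 0.38. Its difference of -0.09 ± 0.06 SE is therefore not informative at this signal.

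Of the 6 junction and surface markers 0 were called by limma (0 at an unadjusted p under 0.05), and their median difference was 0.05. Pecam1 and Cdh5, which define endothelium in most tissues, were dim on this array. Pecam1 had a mean intensity of 0.203 in ob/+ and 0.133 in ob/ob, and Cdh5, the junction cadherin, 0.187 and 0.16. Their differences were 0.08 ± 0.09 and 0.09 ± 0.06 SE, and rounding could move them by up to 0.18 and 0.17. The endothelial label of the list therefore rests, on these arrays, on its brighter markers, since 20 of the 34 genes had a mean intensity above 1 and 4 were below 0.2. Among those 20 genes, 3 were called, against 37.3% of all 6121 genes above that intensity.

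Esam, a junction adhesion protein, and Emcn, a sialomucin of capillaries and veins, differed by 0.03 ± 0.19 and -0.01 ± 0.11 SE. Plvap, the diaphragm protein of fenestrae and caveolae, gave ratios of 0.21, -0.26 and -0.21 in ob/+ and of 0.52, 0.05 and 0.25 in ob/ob. These overlapped, and the difference of 0.36 ± 0.18 SE was not called (limma adjusted p = 0.244). Cldn5, a tight junction claudin, split the ob/ob arrays. Its ratios were 0.05, 0.10 and -0.34 in ob/+, and -0.11, -1.43 and -1.27 in ob/ob replicates 1 to 3. Replicate 1 of ob/ob thus lay inside the ob/+ range while the others lay far below it, and the difference of -0.88 ± 0.40 SE was not called (limma adjusted p = 0.211). Without ob/ob replicate 1 it was -1.29 and was called (limma adjusted p = 0.0225).

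None of the 3 secreted markers and none of the 5 genes of the nuclear and enzyme class was called by limma (0 at an unadjusted p under 0.05 in each), and their median differences were -0.07 and 0.04. Vwf, the clotting factor carrier stored in endothelium, differed by -0.21 ± 0.15 SE, Egfl7 by -0.07 ± 0.14 SE and the matrix protein Mmrn2 by 0.04 ± 0.08 SE. The ETS factor Erg, which keeps endothelial identity, was among the least different markers. Its ratios were 0.07, -0.09 and 0.15 in ob/+ and 0.10, -0.09 and 0.09 in ob/ob, a difference of -0.01 ± 0.09 SE. Sox18 and Tal1, also transcription factors of endothelium, differed by 0.04 ± 0.22 and 0.12 ± 0.07 SE, and Nos3, the endothelial nitric oxide synthase, by 0.24 ± 0.18 SE. Sox17, an arterial factor, gave 0.34, -0.59 and -0.29 in ob/+ and -0.42, -0.80 and -0.71 in ob/ob. These overlapped, and the difference was -0.47 ± 0.27 SE (limma adjusted p = 0.31). A dimmer Sox17 reporter, at an intensity of 0.0233 in both groups, gave 0.53 ± 0.24 SE, within the 1.28 that rounding allows.

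Over the 21 identity markers that were not called, the 95% interval of the difference lay within a 2-fold change in either direction for 18 and within 1.5-fold for 10. The intervals of Kdr, Cldn5 and Sox17 reached beyond 2-fold. Both counts include Flt4, Pecam1 and Cdh5, which were dim, and the intervals take no account of rounding. The mean ratio over the 22 identity markers with a value on every array, again without Ramp2, ran from -0.09 to 0.06 on the ob/+ arrays and was 0.05, -0.26 and -0.17 on ob/ob replicates 1 to 3. Replicate 1 of ob/ob therefore lay inside the ob/+ range and the other ob/ob replicates below it.

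The adhesion molecules were close to the ob/+ level at their brightest reporters, with a median difference of 0.05. Selp (P-selectin), which starts leukocyte rolling, had ratios of -0.05, 0.09 and 0.00 in ob/+ and of 0.27, 0.21 and 0.32 in ob/ob. These did not overlap, and Selp was called as 1.19-fold higher (log2 difference 0.26 ± 0.05 SE, limma adjusted p = 0.031). Its sample intensity was 0.29 ± 0.0265 (SD) in ob/+ and 0.293 ± 0.00577 in ob/ob, while its pool intensity was 0.28 to 0.30 on the ob/+ arrays and 0.24 to 0.25 on the ob/ob arrays. The difference in ratio thus came with a dimmer pool channel on the ob/ob arrays, and rounding can move it by up to 0.10. The call was lost when any array other than ob/+ replicate 2 was left out, with limma adjusted p up to 0.0983. Icam1, the leukocyte integrin ligand, and Icam2, its constitutive relative on endothelium, differed by 0.03 ± 0.11 and 0.05 ± 0.13 SE. The interval for Icam1, -0.25 to 0.32, is narrower than 1.5-fold in either direction.

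Vcam1, which binds leukocytes through integrin VLA4, gave different calls on its 2 reporters. The brighter reporter gave 0.29, -0.24 and -0.11 in ob/+ and -0.21, 0.78 and 0.45 in ob/ob. These overlapped, and the difference of 0.36 ± 0.30 SE was not called (limma adjusted p = 0.497). The dimmer reporter gave 0.09, -0.30 and -0.09 in ob/+ and 0.98, 1.75 and 1.31 in ob/ob. On it all ob/ob arrays were above all ob/+ arrays, a 2.72-fold higher level (log2 difference 1.45 ± 0.23 SE, limma adjusted p = 0.0161) from 0.283 to 0.813 in mean intensity. On both reporters ob/ob replicate 2 was the highest and replicate 1 the lowest of the ob/ob arrays. Sele (E-selectin), induced on inflamed endothelium, was dim on both reporters. The brighter, at 0.14 in ob/+ and 0.0967 in ob/ob, differed by -0.15 ± 0.11 SE. The dimmer, at 0.04 and 0.0867, differed by 0.95 ± 0.45 SE, where rounding can move the value by up to 0.69, and neither was called.

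**Figure D3:**
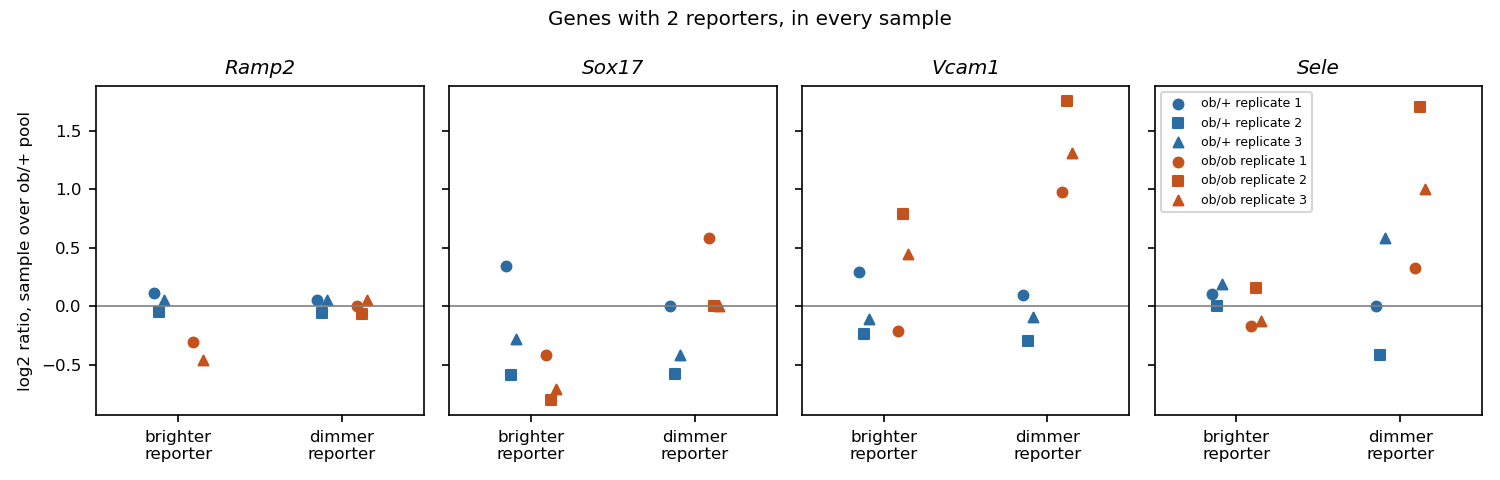
Log2 ratio of sample over pool on each array for both reporters of Ramp2, Sox17, Vcam1 and Sele, the 4 genes with 2 reporters. The dimmer Vcam1 reporter separates the groups (0.98 to 1.75 in ob/ob, -0.30 to 0.09 in ob/+) and the brighter one does not.

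In the authors' deposited table, each reporter also has a p-value per array for the sample against the pool. In the authors' deposited table this p was under 0.05 on all 3 ob/ob arrays for 5 of the 34 genes, namely Sox17, Vegfa, Vegfc, Angpt1 and Angpt2. The authors' deposited table gave a p under 0.05 on at least 1 ob/+ array for 3 genes, Kdr, Sox17 and Sox18, although the pool was itself ob/+ RNA. For 14 genes the authors' deposited table had no array of either group under 0.05.

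Beyond the 34 genes, endothelial genes outside the list were called in both directions, and the calls among fat capillary and lymphatic markers were decreases. Of 22 other endothelial markers, limma called 6 as higher and 2 as lower, with a median of 0.10. Thbd (thrombomodulin), an anticoagulant receptor of endothelium, fell by 1.74 ± 0.17 SE on the log2 scale (limma adjusted p = 0.00529) and the transcription factor Sox7 fell by 0.92 ± 0.06 SE (limma adjusted p = 0.00306). The tetraspanin Tspan18 was called higher by 0.67 ± 0.08 SE, at an intensity of 0.13 in ob/+ where rounding can move it by up to 0.22, and its other reporter was not called. The ratio of Exoc3l2 was higher by 0.28 ± 0.02 SE, but its sample intensity was 0.253 in ob/+ and 0.243 in ob/ob, and rounding can move the difference by up to 0.12.

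Of 9 measured markers of fat capillaries, 5 were lower and 0 higher in limma's test (5 and 0 at an unadjusted p under 0.05), with a median of -0.36. Rbp7, a retinoid-binding protein enriched in capillaries of fat, fell by 2.44 ± 0.20 SE on the log2 scale, from a mean intensity of 18.5 to 3.56. Cd300lg, a capillary surface receptor, fell by 0.68 ± 0.08, the carbonic anhydrase Car4 by 0.95 ± 0.13 and Ly6c1 by 0.36 ± 0.06 SE. Of the 4 that were not called, Meox2 and Cd36 lay above 0, at 0.45 and 0.27, and Tcf15 and Cd34 below, at -0.03 and -0.17 (these 4 were named after their values were seen). The mean ratio over all 9 measured capillary markers was -0.10 to 0.09 on the ob/+ arrays and -0.59 to -0.39 on the ob/ob arrays. Of 8 arterial and venous markers, 1 was lower and 0 higher (limma; 3 and 1 at an unadjusted p under 0.05), with a median of 0.10. This was Nr2f2, the venous factor, which fell by 0.85 ± 0.05 SE (limma adjusted p = 0.00243). Among its 2 other reporters, 1 was called, also as lower. Ackr1, Ephb4 and Bmx were not called, at 0.34, -0.14 and -0.38.

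Of 5 lymphatic markers, 3 were lower and 0 higher (limma; 4 and 0 at an unadjusted p under 0.05), with a median of -1.09. Lyve1, a hyaluronan receptor of lymphatic endothelium that macrophages also carry, fell by 1.20 ± 0.21 SE, Reln by 1.09 ± 0.17 SE and the dim Ccl21a by 2.49 ± 0.35 SE. Prox1, the factor that defines lymphatic identity, differed by -0.68 ± 0.18 SE and was not called (limma adjusted p = 0.0569).

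The lists of signalling partners were mixed. Of 14 VEGF co-receptors and Notch pathway genes, 3 were higher and 1 lower, with a median of 0.16. Nrp2, a co-receptor for Vegfc, was higher by 1.05 ± 0.13 SE (limma adjusted p = 0.00934), the apelin receptor Aplnr by 0.71 ± 0.14 SE and Esm1, a marker of sprouting tip cells, by 1.28 ± 0.26 SE. Among the 2 other reporters of Nrp2, 1 was called, also as higher. The Notch target Hey2 fell by 0.70 ± 0.13 SE. Esm1 in ob/+ (0.127) and Hey2 in ob/ob (0.0833) were near or below the array median. Of 13 other angiogenic ligands, 3 were higher and 2 lower, with a median of -0.01. Vegfd, like Vegfc a ligand of lymphatic growth, was higher by 0.87 ± 0.10 SE (limma adjusted p = 0.00752), Fgf1 by 1.66 ± 0.21 SE and Angptl2 by 0.61 ± 0.12 SE, while the vasoconstrictor Edn1 fell by 1.18 ± 0.18 SE. Fgf1 and Angptl2 were dim in ob/+, at 0.0767 and 0.143. Of 11 genes listed as angiogenesis inhibitors, 4 were higher and 3 lower, with a median of 0.38. The list includes Vash2, which is described as promoting rather than inhibiting vessel growth. Serpinf1 (PEDF) was higher by 1.43 ± 0.12 SE and Thbs2 by 0.88 ± 0.13 SE, while Vash2 fell by 1.43 ± 0.22 SE and Sema3a by 1.08 ± 0.13 SE, to dim ob/ob intensities of 0.0867 and 0.0633. Of 11 hypoxia response genes, 3 were higher and 3 lower, with a median of -0.02. Hif1a and Ldha were higher by 1.20 ± 0.12 and 0.96 ± 0.14 SE, and Ndrg1 and Egln3 fell by 1.54 ± 0.11 and 1.63 ± 0.16 SE. The other reporters of Hif1a and Egln3 were not called, and that of Ndrg1 was called as lower. Of 12 mural cell markers, 3 were higher and 2 lower, with a median of 0.06. Pdgfrb, the pericyte receptor, was higher by 0.67 ± 0.09 and Cspg4 by 0.44 ± 0.10 SE, while the smooth muscle genes Cnn1 and Tagln fell by 3.95 ± 0.74 and 0.98 ± 0.20 SE. The ob/+ ratios of Cnn1 alone ran from -1.94 to 0.75, and its mean ob/ob intensity was 0.19, so the size of its fall is inexact. Cspg4 was dim, at 0.147 in ob/+ and 0.183 in ob/ob, and rounding can move its difference by up to 0.20.

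**Figure D4:**
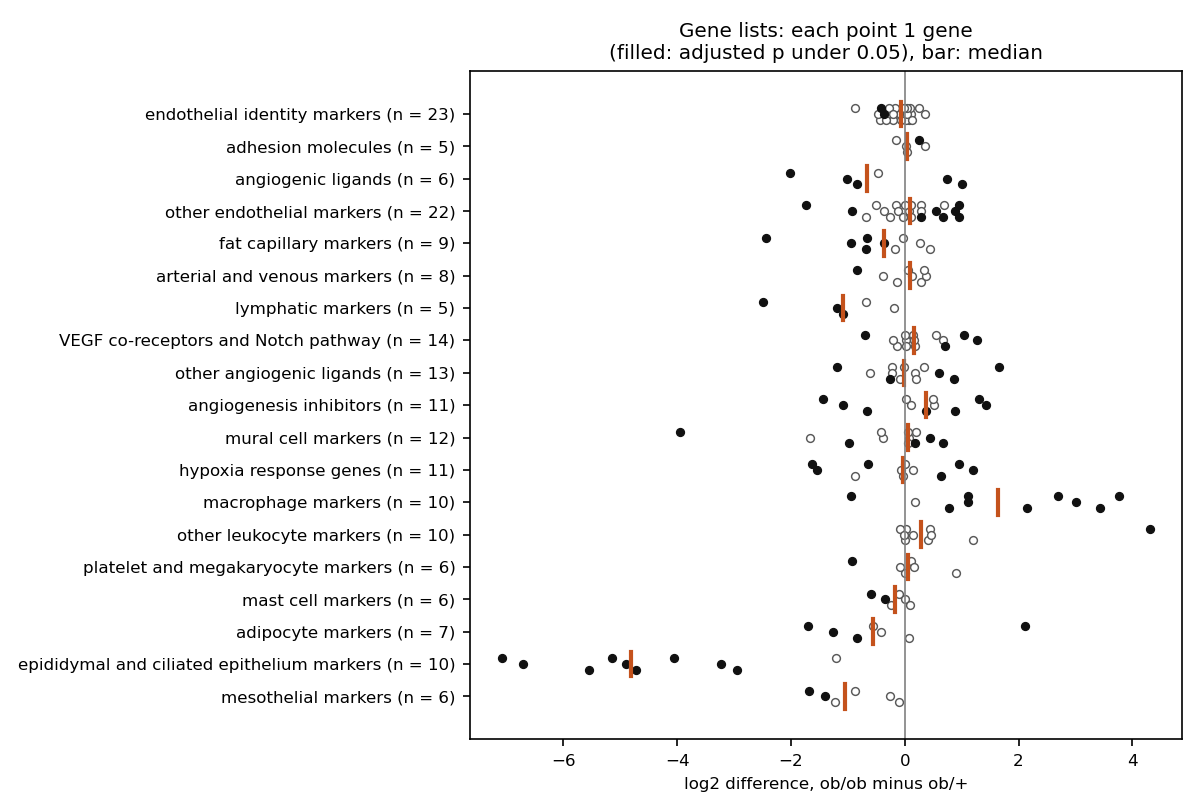
Log2 difference, ob/ob minus ob/+, of every measured gene of each list; each point is 1 gene, filled where limma called it, and the bar is the median of the list. The ligands have 5 of 6 genes called, the identity markers 2 of 23, and the epididymal and ciliated epithelium list 9 of 10, all lower.

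Other cell types moved with the groups. Of 10 markers of epididymal and ciliated epithelium, 9 were lower in ob/ob, with a median of -4.81, and their summed intensity was 29.15 to 62.73 on the ob/+ arrays and 1.19 to 1.62 on the ob/ob arrays. Crisp1, secreted by the epididymis, had ratios of -1.40, 0.91 and -0.06 in ob/+ and of -7.28, -7.24 and -7.24 in ob/ob, where its mean intensity was 0.0733. Mmp7, Adgrg2, Foxj1 and Cdh16 differed by -5.55, -4.91, -4.72 and -5.14. The ob/ob intensities of Mmp7 and Cdh16 were 0.05 and 0.04, so that for them and for Crisp1 these values give the direction and not the size. The part of this epithelium in the decreases of Angpt1, Vegfa, Vegfb, Eng and Ramp2 was not tested. In ob/+ replicate 1, the ob/+ array with the lowest Crisp1 ratio, Angpt1 was at 0.00, Vegfa at 0.04 and Vegfb at 0.05. Eng was at 0.05 and Ramp2 at 0.11 on that array. The mean ratio over the 10 epithelial markers was -0.55 there and -4.75 to -4.58 on the ob/ob arrays. That array therefore does not show what a loss of the size seen in ob/ob would do.

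Of 10 macrophage markers, 8 were higher and 1 lower, with a median of 1.63 and a summed intensity of 32.87 to 34.73 in ob/+ and 68.04 to 143.87 in ob/ob. Adgre1, a surface receptor of macrophages, was higher by 2.70 ± 0.38 SE, Gpnmb by 3.77 ± 0.32 SE, Itgax by 3.01 ± 0.29 SE and Lyz2 by 2.16 ± 0.13 SE, while Cd163 fell by 0.95 ± 0.10 SE. The part of macrophages, which can express Vegfc and Vcam1, in the higher values of these genes was not tested. Of 10 other leukocyte markers, 1 was higher and 0 lower (limma; 2 and 0 at an unadjusted p under 0.05), with a median of 0.28. S100a8 was higher by 4.30 ± 0.26 SE, and Ptprc (CD45), Cd8a and Cd79a were not called, at 1.20, 0.42 and 0.15. Cd8a and Cd79a lay below the array median, at 0.0367 and 0.07 in ob/+, where rounding can move their differences by up to 0.79 and 0.44.

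Of 7 measured adipocyte markers, 1 was higher and 3 lower, with a median of -0.56 and a summed intensity of 61.78 to 74.39 in ob/+ and 32.01 to 41.38 in ob/ob. Adipoq fell by 1.26 ± 0.22, Fabp4 by 0.84 ± 0.14 and Retn by 1.70 ± 0.38 SE, and Lep itself was higher by 2.12 ± 0.08 SE (limma adjusted p = 0.000839), a size that is inexact because its ob/+ intensity lay near the array median. Plin1, Lipe and Pparg were not called, at -0.56, -0.42 and 0.07 (named after their values were seen). Of 6 mesothelial markers, 2 were lower and 0 higher (limma; 4 and 0 at an unadjusted p under 0.05), with a median of -1.04. Wt1 fell by 1.40 ± 0.18 SE and Krt19 fell by 1.68 ± 0.24 SE. Upk3b and Upk1b were not called, at -0.25 and -1.22. The part of adipocytes, which make Vegfa and Vegfb, in the lower values of these genes was not tested.

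Of 6 platelet markers, some of which endothelium shares, 1 was lower and 0 higher (limma; 1 and 1 at an unadjusted p under 0.05), with a median of 0.06. Itga2b fell by 0.93 ± 0.14 SE, and Pf4 and Gp1ba were not called, at 0.90 and 0.11. Of 6 mast cell markers, 2 were lower and 0 higher (limma; 2 and 0 at an unadjusted p under 0.05), with a median of -0.18. Cma1 and Tpsb2 fell by 0.59 ± 0.04 and 0.34 ± 0.04 SE, and Cpa3, which defines mast cells, was near the lowest intensities in both groups (0.0533 in ob/+ and 0.05 in ob/ob), as was Mcpt4. Cma1 was also dim, at 0.163 in ob/+ and 0.0933 in ob/ob, and rounding can move its difference by up to 0.21.

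**Figure D5:**
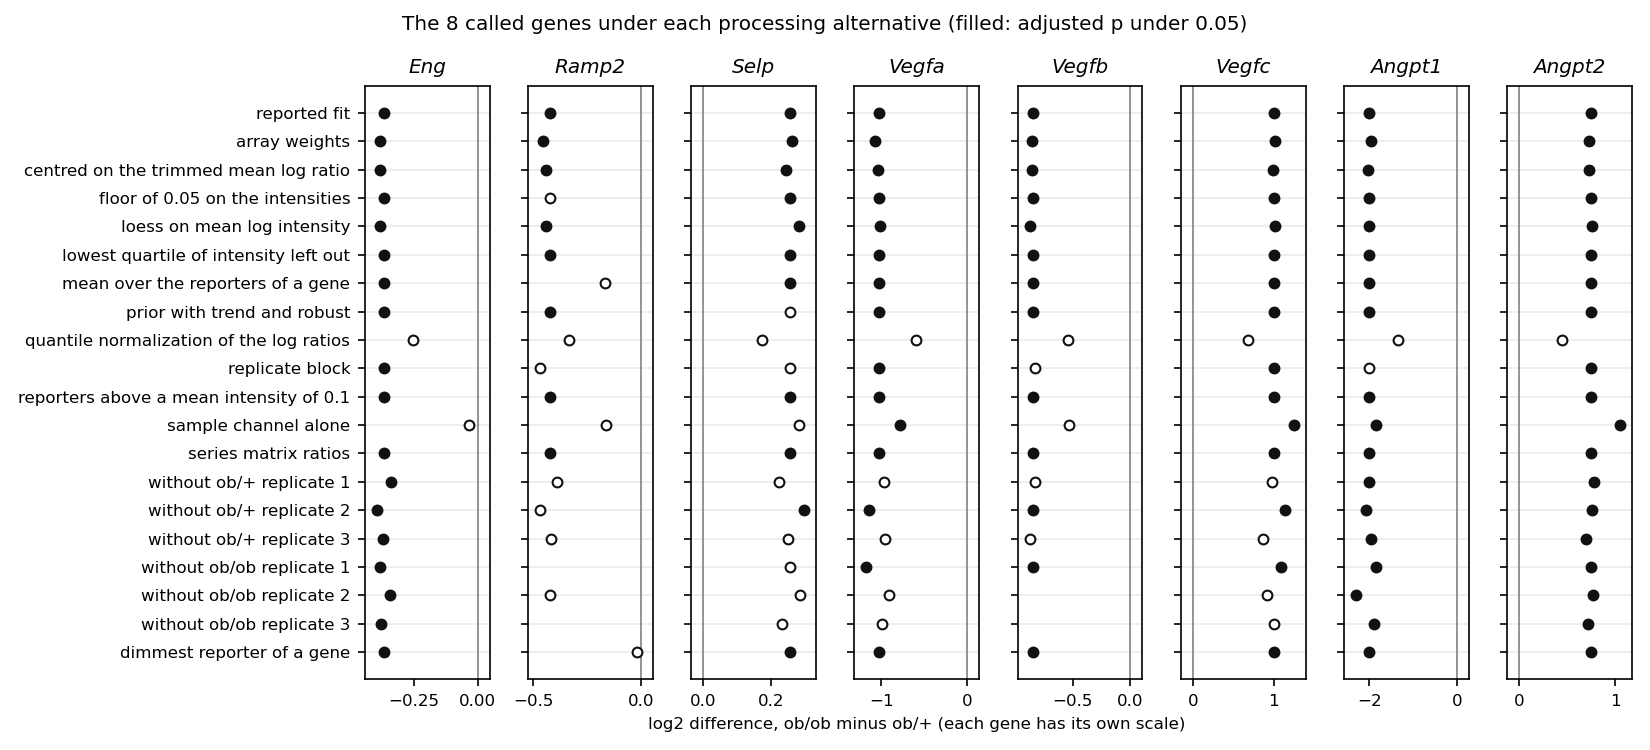
Log2 difference, ob/ob minus ob/+, of the 8 called genes in the reported fit and under each alternative other than the changed thresholds, with filled points where the gene was called and its own scale for each gene. All 8 kept their direction under each alternative that gave a value, and Angpt2 lost its call only under quantile normalization, where its difference was 0.45.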

How the data were processed

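For each of 6 two-colour arrays the authors deposited the intensity of the sample and of the pool (linear, normalized in a way the sources used here do not give), and a p-value for sample against pool from an unnamed test. Agilent Feature Extraction 8.5.1.1 is named in the submitters' processing notes. The log10 ratios deposited as a series matrix were converted to log2. They matched the table's ratios within 0.02 at 100% of reporters and gave the values per replicate, because the table numbers its columns differently from the labels. The table calls the controls wt and the design text speaks of islets; the labels (ob/+, eWAT) were followed. 0 columns of per-sample values were left unassigned.

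In R 4.3.3, limma 3.58.1 (lmFit, eBayes) was run on the log2 ratios of sample over pool (ob/ob minus ob/+, two-sided, no block), with Benjamini-Hochberg adjustment over 39407 reporters that had 2 or more arrays per group. The brightest reporter stood for a gene. Symbols of 3188 of 30162 named reporters were updated through RefSeq, and 9345 reporters had none. Of the 34 genes 0 carried an outdated symbol. Values for single genes and the number of calls were recomputed under 21 alternatives. The procedure was tested on simulated data. It recovered 2 of 67 changes of 0.5 on the log2 scale, 55 of 67 of 1 and 66 of 66 of 2. Far fewer reporters were changed there than were called in the data, so these shares do not carry over exactly. Deviations of arrays that share a replicate number correlated at 0.0617, -0.0617 and 0.0061, so the numbers do not pair the samples.

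The 34 genes and all other lists were chosen with earlier results of these data known. The text names all 34 genes and, of each other list, the 4 with the lowest unadjusted p plus defining markers, except 1 gene that is not reported here. With 3 arrays a group, the number of arrays limits the precision. Promoter sequences were taken from RefSeq tables on GRCm38.p6.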

Additional observations from a re-analysis of the deposited data

How the results depend on the processing

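All 8 called genes kept their direction under each of the 21 alternatives that gave a value. Leaving out 1 array at a time gave 3130 to 5361 called genes in all (6325 with all arrays), 3 to 7 of the 34 genes, 1 to 2 identity markers, 0 to 1 adhesion molecules (1 to 3 at an unadjusted p under 0.05) and 2 to 5 ligands. The lowest total came without ob/ob replicate 3. Quantile normalization of the log ratios left 557 calls in all, 0 of them among the 34 genes, identity markers, adhesion molecules or ligands (6, 1, 0 and 5 at an unadjusted p under 0.05), with 55.8% of the calls higher. It sets all arrays to 1 common distribution, although the ratios spread wider on the ob/ob arrays, and gave -1.35 for Angpt1, 0.45 for Angpt2, 0.68 for Vegfc and -0.60 for Vegfa. The replicate block, with numbers that do not pair the samples, left 2580 calls, of them 4 of the 34 genes (Eng, Vegfa, Vegfc and Angpt2), 1 identity marker, 0 adhesion molecules and 3 ligands. The sample channel alone, centred on the median of each array, called 4 of the 34 genes (Vegfa, Vegfc, Angpt1 and Angpt2), 0 identity markers and 0 adhesion molecules. A threshold of 0.01 left 2127 calls, 2 of the 34 genes, 1 identity marker, 0 adhesion molecules and 1 ligand. A floor of 0.05, the mean over reporters and the dimmest reporter each left 1 identity marker, the prior with trend and robust left 0 adhesion molecules, and the dimmest reporter gave 2, Selp and Vcam1. Apart from these effects of construction, the cause was not tested. In the main analysis, intensities near 0.1 limit Flt4, Pecam1, Cdh5, Sele and the dim Sox17 reporter, because values are stored in steps of 0.01.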
